A study of Rattus norvegicus with 15 samples.

Results

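The miR-29 family of rat consists of miR-29a, miR-29b and miR-29c (rno-miR-29a, rno-miR-29b and rno-miR-29c in the array annotation), and these 3 members were taken by name, without their star forms, from 350 rat miRNAs on a one-colour Agilent array. They were read by 6 of the 938 rat miRNA probes, 2 for each member. Hearts of male Sprague-Dawley rats were compared in 3 groups, each with 5 arrays. The GF group had diabetes from streptozotocin, a toxin of insulin-making beta cells, given once into the tail vein at 60 mg/kg, followed by fluctuation of glucose through fasting for 24 h and an injection of insulin at 0.5 IU/kg. The DM group had the same streptozotocin injection and was left with sustained high glucose. Rats of both diabetic groups had plasma glucose above 300 mg/dL, and the Veh group received vehicle. The comparison of GF with DM therefore holds the fasting, the insulin and the glucose swings together, and the labels do not separate them. RNA was taken from heart tissue, and a change in the share of a cell type and a change in the miRNA content of its cells cannot be told apart in such samples.

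A miRNA guides the Argonaute protein to messenger RNAs through its seed, the short stretch near its 5′ end, and lowers their stability and translation. The miR-29 family is known for targets among the mRNAs of the extracellular matrix, collagens, fibrillin and elastin among them, and in the heart a fall of miR-29 next to an infarct has been tied to fibrosis. Cardiac fibroblasts make most of that matrix. The family has also been reported to be raised in muscle, fat and liver of diabetic rats.

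The mature sequences are shown because the members share 1 seed and differ at few other positions, which bears on how far their probes can be told apart. They are from RefSeq (build GRCr8), 5′ to 3′, with the seed, bases 2 to 8, in capitals:
miR-29a: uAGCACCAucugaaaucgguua
miR-29b: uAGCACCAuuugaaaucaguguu
miR-29c: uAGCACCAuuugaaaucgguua
These 3 were the only ones of 693 rat mature miRNA names in that table with the seed AGCACCA, whose complement in a target reads UGGUGCU. With positions counted from 1 at the 5′ end, the change needed to turn miR-29c into miR-29a is U10C, the single difference over 22 bases. Between miR-29c and miR-29b the differences are G18A, U21G and A22U, and miR-29b is 1 base longer, at 23. The sequences of the array probes were not used here, so whether a probe for one member also binds another was not tested, and the 3 readings are not treated as independent.

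The family comes from 2 pairs of hairpins. Mir29a lies at chr4:60617955-60618042 and Mir29b1 at chr4:60618334-60618414, both on the minus strand with 291 bases between them. Mir29b2 lies at chr13:109098831-109098911 and Mir29c at chr13:109099359-109099446, both on the plus strand with 447 bases between them. The mature miR-29b from chromosomes 4 and 13 has the same sequence at both, so its signal is the sum over both loci.

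Some arrays were very close to each other. In 5 pairs of arrays of 1 group, the close pairs, the signals differed by less than the error stated by the scanner software (reduced chi-square of 0.242 to 0.622 over 149 miRNAs). The labels do not say whether both arrays of such a pair came from the same animal. The mean of each such pair served as 1 sample, so that 10 distinct samples remained, 3 of GF (replicates 1+5, 2+4 and 6), 3 of DM (1, 2+4 and 3+5) and 4 of Veh (1+3, 2, 4 and 5). The Veh 5 array was nearer to DM 1, 2 and 4 (reduced chi-square 1.37 to 2.15) than to the 4 other Veh arrays (3.78 to 5.06), and results are also given without it. The 75th percentile of the signal, which served to scale the arrays, averaged 2774 ± 526 in GF (SD, n = 3), 2019 ± 246 in DM (SD, n = 3) and 2205 ± 262 in Veh samples (SD, n = 4). The exact two-sided permutation p for this brightness was 0.229 for GF against Veh, 0.343 for DM against Veh and 0.2 for GF against DM (all 0.343 adjusted over these 3 comparisons), where the smallest p the last design allows is 0.1.

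All 6 miR-29 probes were well above background on 15 of 15 arrays, and 0 spots were saturated. Each probe was printed as 10 spots, whose coefficient of variation within an array had a median of 4.27% to 7.43% for the different probes. The brighter probe of each member, which represents it below, had unscaled signals of 16239 to 36491 for miR-29a, 23457 to 53434 for miR-29b and 6636 to 14554 for miR-29c. Per a column of the array files, some bright spots were read from a second scan at lower gain. For these probes that held for 100% of the miR-29b spots in each group and 0% of the miR-29c spots. For miR-29a it was 100% of the spots in GF, 58.0% in DM and 40% in Veh arrays, so that the scan moved with the group for this probe. Its part in the miR-29a difference was not tested. The dimmer miR-29a probe had 0 such spots in any group, and its GF minus Veh difference was 0.27 ± 0.12 on the log2 scale (SE), beside 0.31 ± 0.13 for the brighter one.

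Glucose fluctuation was set against control first. All values below are log2 of the scaled signal unless stated. miR-29a read 14.79, 14.58 and 14.51 in the GF samples 1+5, 2+4 and 6, against 14.31, 14.005, 14.32 and 14.63 in the Veh samples 1+3, 2, 4 and 5. One GF sample lay above every Veh sample, and Veh 5 lay above the other two GF samples. The means were 14.63 ± 0.14 in GF (SD, n = 3) and 14.32 ± 0.26 in Veh (SD, n = 4), a difference of 0.31 ± 0.13 (SE, 95% interval 0.0092 to 0.61) or 1.24-fold, which did not pass the threshold of 0.05 (limma adjusted p = 0.157).

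miR-29b read 15.47, 15.16 and 15.19 in GF 1+5, 2+4 and 6, against 15.005, 14.52, 14.94 and 15.25 in Veh 1+3, 2, 4 and 5. Its samples overlapped in the same way, with GF 1+5 on top, Veh 5 next and Veh 2 lowest. The difference was 0.34 ± 0.16 (SE, 95% interval -0.0059 to 0.69), 1.27-fold, with means of 15.27 ± 0.17 in GF (SD, n = 3) and 14.93 ± 0.30 in Veh (SD, n = 4), and a limma adjusted p of 0.169.

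miR-29c read 13.35, 13.19 and 13.14 in GF 1+5, 2+4 and 6, against 13.03, 12.80, 13.04 and 13.28 in Veh 1+3, 2, 4 and 5. Here too Veh 2 was lowest and Veh 5 lay inside the GF range. The difference of 0.19 ± 0.11 (SE, 95% interval -0.056 to 0.43), 1.14-fold, came from means of 13.23 ± 0.11 in GF (SD, n = 3) and 13.04 ± 0.20 in Veh (SD, n = 4), with a limma adjusted p of 0.265. Thus 0 of the 3 members passed as higher over the distinct samples, where 3.03% of the 165 tested miRNAs did (limma, adjusted over all tested). At an unadjusted p under 0.05, 1 of the 3 passed, miR-29a, where 30.9% of all tested did. Ordered by the difference, miR-29b stood 14, miR-29a 17 and miR-29c 24 from the highest of the 165, whose median was -0.055.

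**Figure D1:**
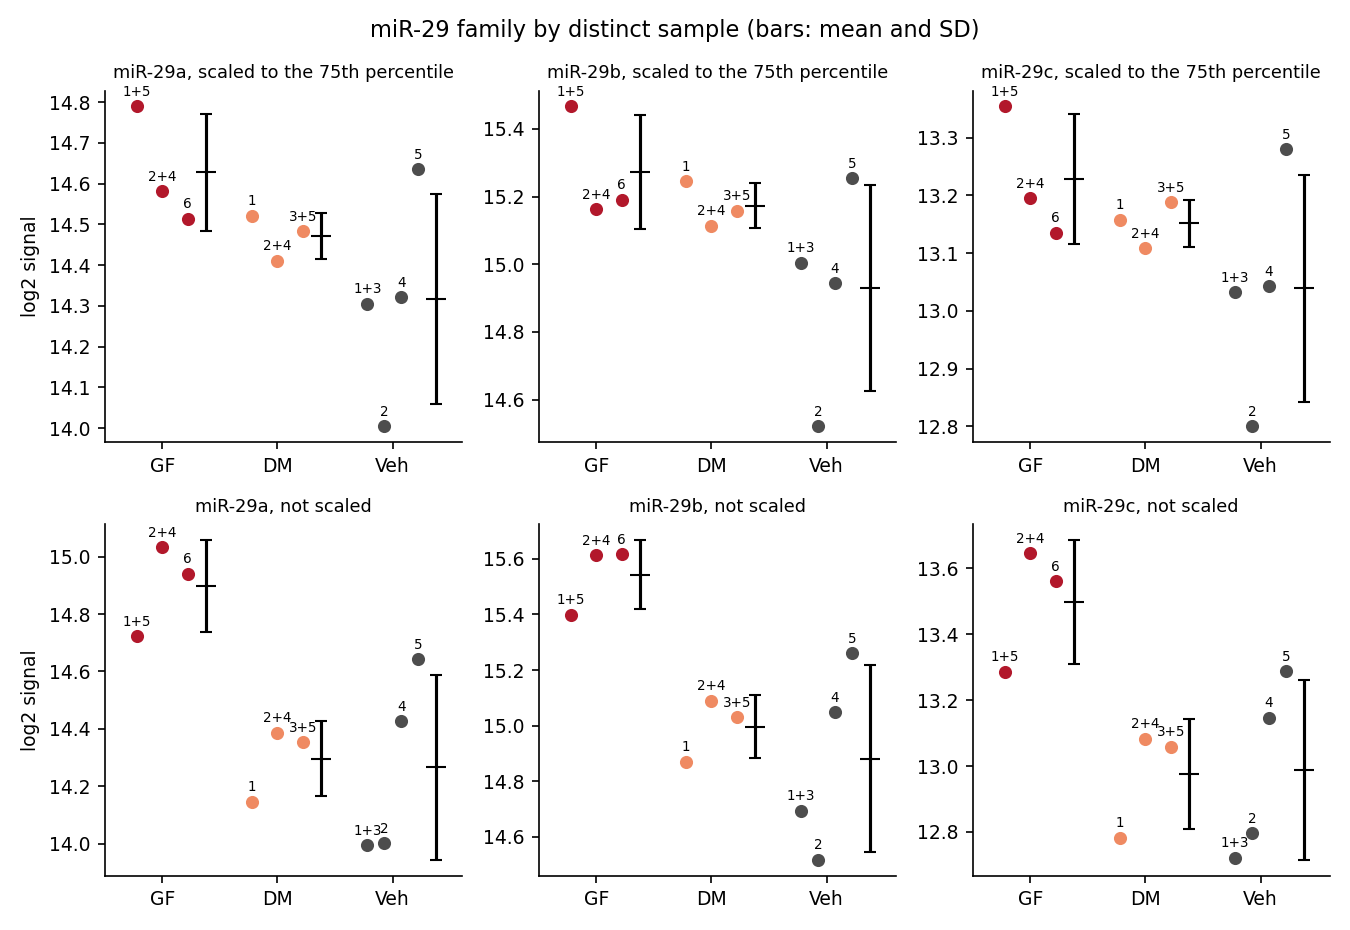
The log2 signal of each member by distinct sample, scaled above and unscaled below, with replicate numbers beside the points and bars for the mean and SD of each group. In the scaled panels Veh 5 lies within the GF range and Veh 2 is the lowest sample for each member, while in the unscaled panels each GF sample lies above each DM sample.

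Of the 10 distinct samples, the lowest and the highest Veh sample moved these differences most when left out. Without Veh 5 the GF minus Veh difference was 0.42 for miR-29a (limma adjusted p = 0.0322), 0.45 for miR-29b (0.0616) and 0.27 for miR-29c (0.0893), so that 1 of 3 members passed, beside 9.09% of all tested as higher. Without Veh 2 the differences were 0.21, 0.21 and 0.11 in the same order (adjusted p 0.264, 0.265 and 0.452). With the 15 arrays taken as independent samples, where 12.7% of tested miRNAs passed as higher, 3 of 3 members passed, with differences of 0.34, 0.34 and 0.21. With the same 15 arrays and the close pairs as a random block, 0 of 3 passed (0.32, 0.34 and 0.19; limma adjusted p 0.0847, 0.102 and 0.204), beside 4.85% of all tested as higher. In DM minus Veh and GF minus DM the fit to independent arrays called 0 of 3 members, beside 0% of all tested as higher in both. It counts both arrays of each close pair as separate samples, and the mean differences in it are close to those over distinct samples.

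The 15 arrays lay on 2 slides, and no close pair lay within a slide. On slide 1 (2 GF and 2 Veh arrays) the GF minus Veh differences were 0.50, 0.51 and 0.37 for miR-29a, miR-29b and miR-29c. On slide 2 (3 GF and 3 Veh arrays) they were 0.23, 0.23 and 0.099, and the groups overlapped. The lowest Veh sample of each member, Veh 2, lay on slide 1, and the highest, Veh 5, on slide 2. The direction was the same on both slides, and no test was made with so few arrays in each. Each close pair had 1 array on each slide, so the slides share samples as counted here. Their agreement is therefore not that of independent samples.

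Scaling between arrays changed the size of these differences. Without it, miR-29a read 14.72, 15.03 and 14.94 in GF 1+5, 2+4 and 6, against 13.99, 14.001, 14.43 and 14.64 in Veh 1+3, 2, 4 and 5. Each GF sample was then above each Veh sample for miR-29a and for miR-29b, as for 12.7% of tested miRNAs, and 2 of 3 GF samples were for miR-29c. The unscaled differences were 0.63 ± 0.20, 0.66 ± 0.20 and 0.51 ± 0.20 (SE) for miR-29a, miR-29b and miR-29c, with limma adjusted p of 0.0460, 0.0397 and 0.118. On that scale the arrays of a close pair, counted as 1 sample, differed by up to 0.39, 0.31 and 0.49 for these members. Thus 2 of 3 members passed, beside 9.7% of all tested as higher. The median over all tested miRNAs was 0.25 without scaling, beside -0.055 with it. Scaled to the 75th percentile over all probes, where that median was 0.075, the differences were 0.45, 0.48 and 0.32, and 3 of 3 members passed (limma adjusted p 0.0292, 0.0351 and 0.0483), beside 9.09% of all tested as higher. With quantile normalization they were 0.32, 0.33 and 0.19, and no member passed (limma adjusted p 0.0941, 0.0520 and 0.115), beside 4.24% as higher. Scaled to the hur control spots they were 0.33, 0.36 and 0.21, and no member passed (limma adjusted p 0.177, 0.217 and 0.365), beside 1.21%.

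The unscaled miR-29 signals moved with the brightness of the array over the 10 distinct samples. That brightness is taken from the same unscaled signals, the members' probes among them. The relation is not given for the other tested miRNAs, so it cannot be read as particular to miR-29. Pearson's r with the log2 75th percentile was 0.814 for miR-29a, 0.731 for miR-29b and 0.879 for miR-29c (permutation p adjusted over 6 relations 0.0124, 0.0302 and 0.00768), and Spearman's rho was 0.745, 0.648 and 0.842 (adjusted 0.0496, 0.0963 and 0.0219). Without the 2 samples farthest from the median brightness r was 0.507, 0.333 and 0.664. For the scaled signals r was 0.130, -0.0074 and 0.0611 (adjusted permutation p 0.984 for each). The scaling divides by that same percentile.

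Sustained hyperglycaemia was then set against the same Veh samples, so the 2 comparisons share their controls. miR-29a read 14.52, 14.41 and 14.48 in DM 1, 2+4 and 3+5, with a mean of 14.47 ± 0.056 (SD, n = 3), against 14.32 ± 0.26 in Veh (SD, n = 4). The DM samples lay close together, above 3 of the 4 Veh samples and below Veh 5. The difference was 0.16 ± 0.13 (SE, 95% interval -0.15 to 0.46; limma adjusted p = 0.664).

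The DM values of miR-29b were 15.25, 15.11 and 15.16 in samples 1, 2+4 and 3+5, with a mean of 15.17 ± 0.067 (SD, n = 3), against 14.93 ± 0.30 in Veh (SD, n = 4), a difference of 0.24 ± 0.16 (SE, 95% interval -0.11 to 0.59; limma adjusted p = 0.568). The DM values of miR-29c were 13.16, 13.11 and 13.19 in the same samples, with a mean of 13.15 ± 0.040 (SD, n = 3), against 13.04 ± 0.20 in Veh (SD, n = 4), a difference of 0.11 ± 0.11 (SE, 95% interval -0.13 to 0.36; limma adjusted p = 0.691). Among all tested miRNAs 0% passed in limma over distinct samples in this comparison, and 8.48% at an unadjusted p under 0.05, where 0 of the 3 members did. The 3 DM samples covered a range of 0.11, 0.13 and 0.080 for miR-29a, miR-29b and miR-29c, against 0.63, 0.73 and 0.48 for the 4 Veh samples. DM 1 was itself close to DM 2 and DM 4 over all detected miRNAs (reduced chi-square 1.22 and 1.14). Without scaling the miR-29c difference was -0.013, so its direction turned. On slide 1 the DM minus Veh differences were 0.30, 0.38 and 0.25 for miR-29a, miR-29b and miR-29c, and on slide 2 they were 0.040, 0.10 and 0.0011.

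Glucose fluctuation against sustained hyperglycaemia compares the 2 diabetic groups. Their scaled signals overlapped for each member. The GF minus DM difference was 0.16 ± 0.14 for miR-29a (SE, 95% interval -0.17 to 0.48; limma adjusted p = 0.680), with 2 of 3 GF samples above every DM sample. For miR-29b it was 0.10 ± 0.17 (SE, 95% interval -0.27 to 0.47; limma adjusted p = 0.803), and for miR-29c it was 0.077 ± 0.12 (SE, 95% interval -0.19 to 0.34; limma adjusted p = 0.803). Again 0 of 3 members passed, beside 0% of all tested miRNAs, and 0 of 3 at an unadjusted p under 0.05, beside 10.9%. The intervals leave room for a rise of 1.39-fold in miR-29a and of 1.26-fold in miR-29c. Their lower ends, at -0.17, -0.27 and -0.19 for miR-29a, miR-29b and miR-29c, leave room for a fall as well.

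Unscaled, the same comparison looked different. For each member the 3 GF samples were above the 3 DM samples, as they were for 26.7% of tested miRNAs. The unscaled differences were 0.60 ± 0.21, 0.55 ± 0.21 and 0.52 ± 0.21 (SE) for miR-29a, miR-29b and miR-29c, with limma adjusted p of 0.141, 0.152 and 0.159, while the median over all tested miRNAs was 0.35. Scaled to the hur control spots, where the median of all tested was -0.20, miR-29b and miR-29c were at -0.023 and -0.047 and miR-29a at 0.033.

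**Figure D2:**
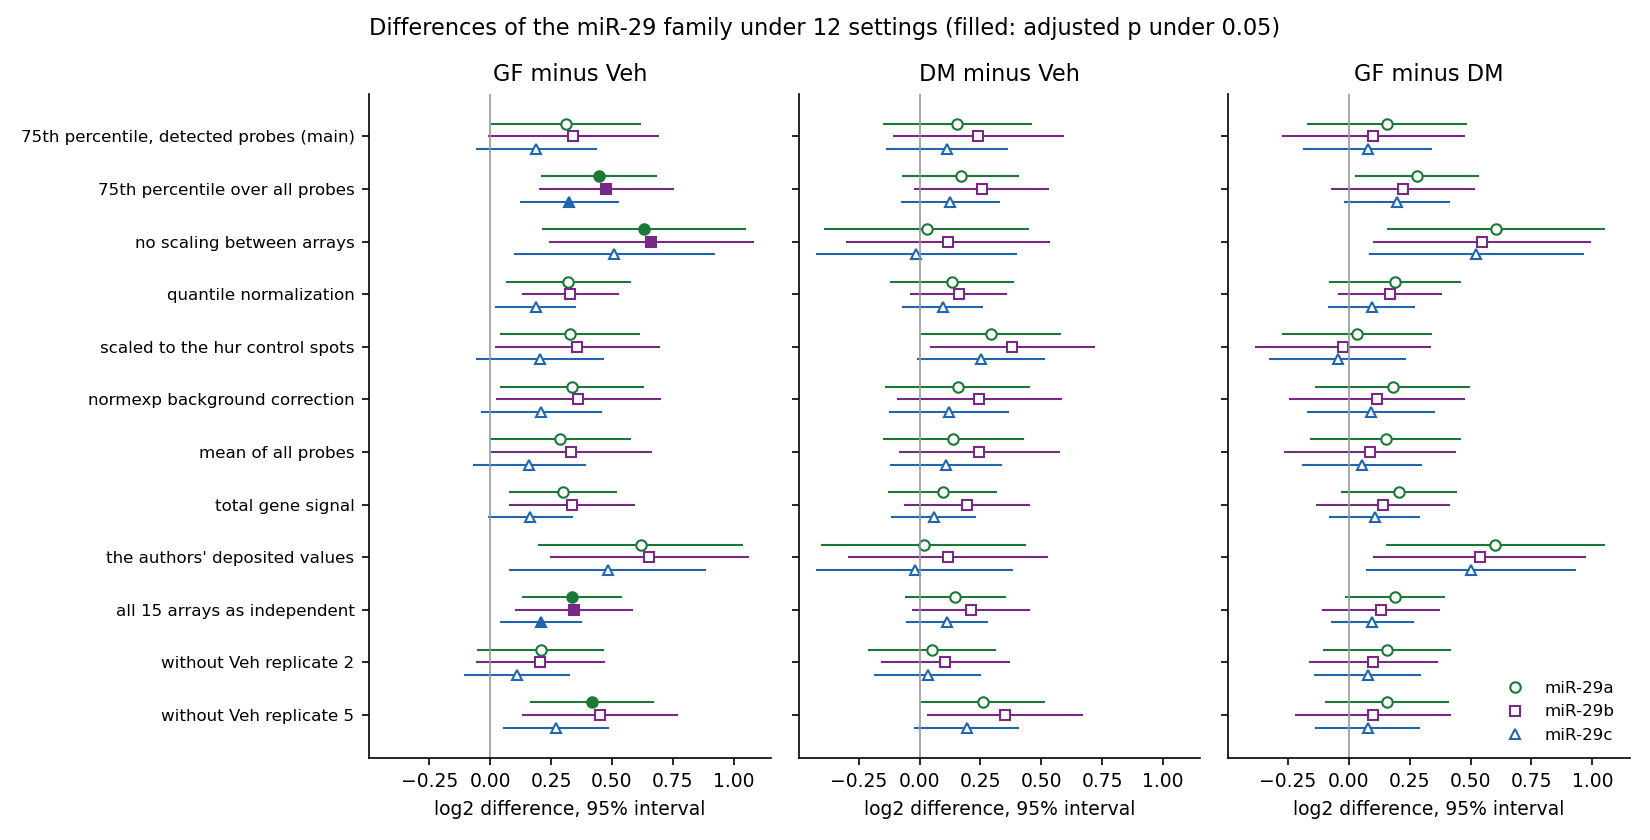
The log2 difference of each member with its 95% interval in the 3 comparisons (columns) under 12 settings (lines), filled where the adjusted p was under 0.05. The GF minus Veh points lie above 0 under each setting shown and are filled for miR-29a under 4 of them, while no DM minus Veh or GF minus DM point is filled.

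**Figure D3:**
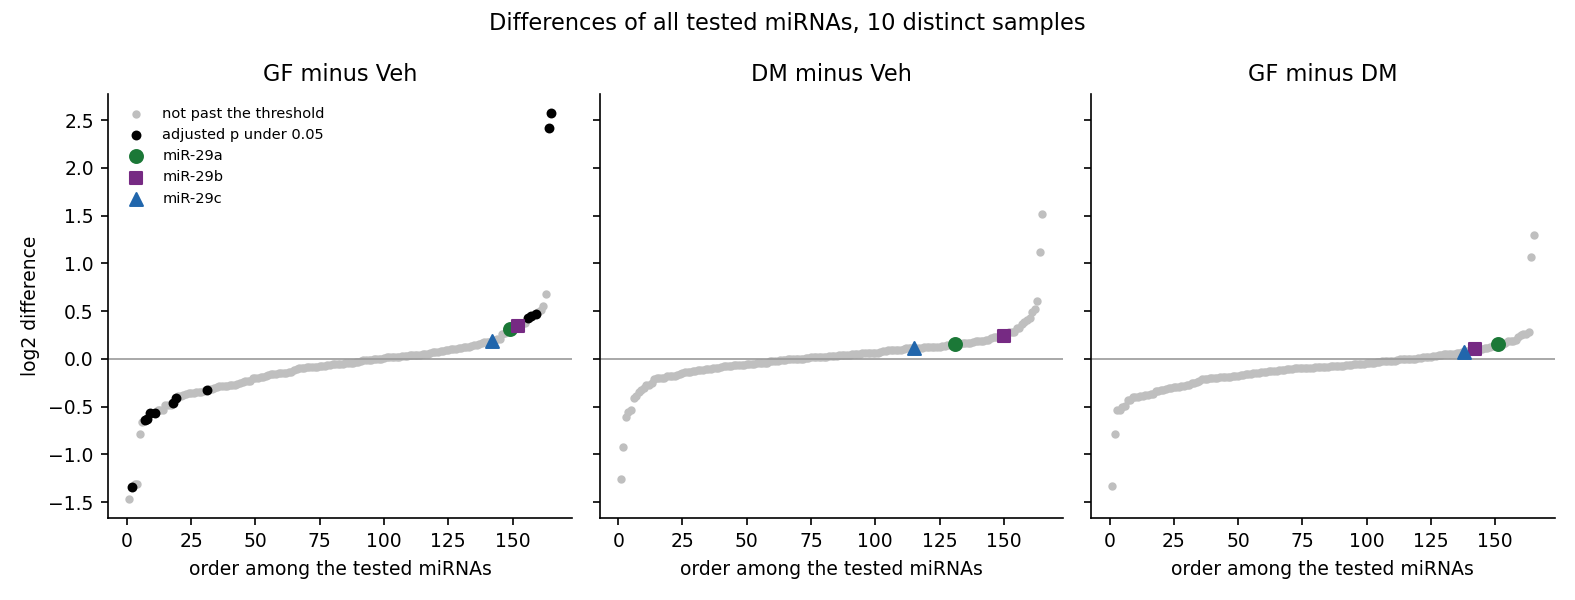
The differences of the 165 tested miRNAs over the 10 distinct samples, ordered from lowest to highest in each comparison, with the 3 members marked. In GF minus Veh the members lie at 0.31, 0.34 and 0.19, below the 5 miRNAs that passed as higher (black points on the right).

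The members varied together across the 10 distinct samples. Pearson's r was 0.973 between miR-29a and miR-29b, 0.989 between miR-29a and miR-29c and 0.968 between miR-29b and miR-29c, with permutation p of 5e-05, 1e-05 and 7e-05 (adjusted over the 3 pairs 7e-05, 3e-05 and 7e-05), of which 1e-05 is the smallest the permutations can give. Spearman's rho for these pairs was 0.952, 0.964 and 0.891 (adjusted permutation p 0.00015, 0.00012 and 0.00117). Without the 2 samples farthest from the median r was 0.906, 0.953 and 0.858. Within slide 1 (7 arrays) r was 0.975, 0.984 and 0.955 in the same order (adjusted permutation p 0.00249, 0.00249 and 0.00437), and within slide 2 (8 arrays) 0.958, 0.955 and 0.913 (adjusted permutation p 0.000345, 0.000345 and 0.00063). Without the 2 arrays farthest from the median r was 0.741, 0.873 and 0.493 on slide 1, where the relation of miR-29b with miR-29c thus rests largely on those arrays, and 0.893, 0.882 and 0.855 on slide 2. Each close pair had an array on both slides, so the slides are not independent of each other. The deviations from the group means, pooled over the 3 groups, gave r of 0.972, 0.994 and 0.960, and the Veh samples, with the widest range, carry most of that value. With quantile normalization the same r was 0.571, 0.908 and 0.512. The members share the array, the scaling, the seed and most of their sequence.

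**Figure D4:**
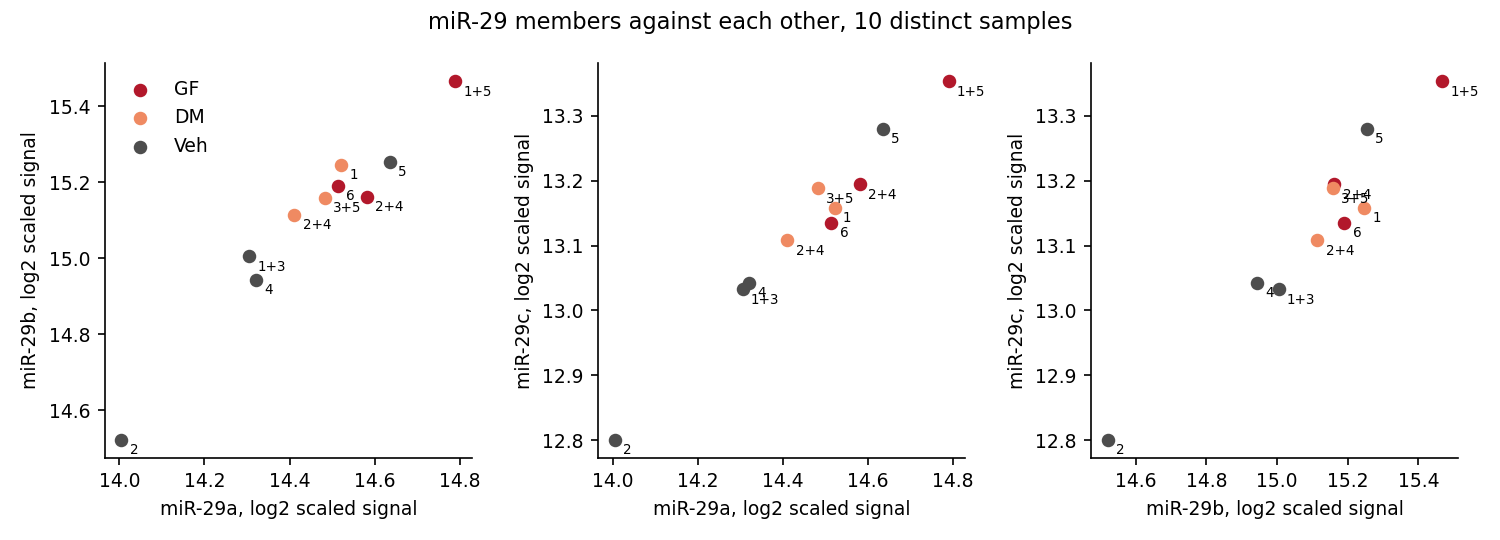
The scaled log2 signal of each pair of members in the 10 distinct samples, with replicate numbers. GF 1+5 lies at the upper end and Veh 2 at the lower end in each panel, and Veh 5 lies among or above the GF and DM samples.

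The arrays of the close pairs, which were picked for their small differences over all detected miRNAs, were also close for the members. Between the arrays of the 5 close pairs the scaled signal differed by 0.013 to 0.075 for miR-29a, 0.022 to 0.097 for miR-29b and 0.019 to 0.088 for miR-29c (log2). The scaled range over the 4 Veh samples was wider, at 0.63, 0.73 and 0.48 in that order. Over the 3 GF samples it was 0.28, 0.30 and 0.22. Over the 3 DM samples it was 0.11, 0.13 and 0.080, near the largest pair differences. Unscaled, the arrays of a close pair differed by up to 0.39, 0.31 and 0.49, each in DM 2+4. The second probe of each member gave GF minus Veh differences of 0.27 ± 0.12 for miR-29a, 0.32 ± 0.14 for miR-29b and 0.13 ± 0.10 for miR-29c (SE), beside 0.31, 0.34 and 0.19 for the brighter probes. The second miR-29b probe was read from the lower-gain scan for 100% of its spots in GF, 62.5% in DM and 36.2% in Veh arrays, so the scan moved with the group there too, and its part in the difference was not tested.

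The hairpins also give partner strands, named with a star on the array, which do not carry the miR-29 seed. Of these, miR-29b-1* and miR-29b-2* were not well above background on any of the 15 arrays. The other two were measured in each group, and they are shown because their seeds, again in capitals, differ from that of the family:
miR-29a*: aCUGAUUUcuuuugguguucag
miR-29c*: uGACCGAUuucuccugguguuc
miR-29a* read 6.96, 6.62 and 6.80 in GF 1+5, 2+4 and 6 and 6.98, 6.88 and 6.53 in DM 1, 2+4 and 3+5, against 6.37, 6.19, 6.41 and 6.68 in Veh 1+3, 2, 4 and 5. Both diabetic groups overlapped the Veh group only through Veh 5. The miR-29a* difference was 0.38 ± 0.15 (SE) in GF minus Veh and 0.38 ± 0.15 (SE) in DM minus Veh, with limma adjusted p of 0.121 and 0.468, and -0.0037 ± 0.16 (SE) in GF minus DM (adjusted p = 0.987). miR-29c* averaged 8.22 ± 0.13 in GF (SD, n = 3), 8.31 ± 0.039 in DM (SD, n = 3) and 8.26 ± 0.11 in Veh (SD, n = 4), and its GF minus Veh difference was -0.045 ± 0.087 (SE; limma adjusted p = 0.789), within its SE of 0. Without scaling it was 0.28 ± 0.19 (SE; limma adjusted p = 0.360), so its sign depends on the scaling.

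The pattern of the family was summarised as the mean of the 3 members, each centred on its own mean. It was 0.31, 0.082 and 0.049 in GF 1+5, 2+4 and 6 and 0.078, -0.020 and 0.046 in DM 1, 2+4 and 3+5, against -0.12, -0.46, -0.13 and 0.16 in Veh 1+3, 2, 4 and 5. Its SD over the 10 samples was 0.204, near the median SD of 0.179 for the 162 other tested miRNAs. The 5 miRNAs most like it by Pearson's r over these samples were let-7e (0.962), miR-296* (0.925), miR-26b (0.902), miR-326 (0.881) and miR-128 (0.878), beside a median r of 0.223 over the 162. None of these 5 passed in GF minus Veh over distinct samples, where their differences were 0.12, 0.36, 0.26, 0.34 and 0.18 (limma adjusted p 0.0666 to 0.495).

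Other miRNAs tied to fibrosis give the setting of the family. Of 15 miRNAs reported to act against collagen, connective tissue growth factor or fibroblast growth, all 15 were tested, and 2 rose and 0 fell in GF against Veh, beside 3.03% higher and 4.85% lower over all tested, with a median difference of 0.068 beside -0.055. The 2 that rose were miR-19b, a member of the miR-17-92 cluster (0.45 ± 0.11, SE; limma adjusted p = 0.0385), and miR-101a, reported to act on fibroblast growth (0.43 ± 0.092, SE; adjusted p = 0.0194). miR-19a, of the same cluster as miR-19b, and miR-26b were at 0.38 ± 0.11 and 0.26 ± 0.078 (SE; adjusted p 0.0611 and 0.0666). The muscle miRNAs miR-133a and miR-133b were at -0.34 ± 0.13 and -0.32 ± 0.11 (SE; adjusted p 0.126 and 0.0910), opposite in sign to miR-29 for the scaled signal. The values of both fibrosis lists are of the scaled signal, and a sign can depend on the scaling. Without it 9.7% of all tested miRNAs passed as higher and 1.21% as lower in GF minus Veh. Over the 15 arrays 6 of the 15 passed as higher and 3 as lower, beside 12.7% and 23.6% of all tested.

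Of 6 miRNAs reported to favour fibrosis, 5 were on the array and tested, and 1 fell in GF against Veh while 0 rose, beside 4.85% and 3.03% of all tested. The one that fell was miR-208, encoded in a myosin heavy chain gene (-1.34 ± 0.28, SE; limma adjusted p = 0.0194). miR-34a, linked to p53, was at 0.68 ± 0.21 (SE; adjusted p = 0.0745) and miR-21, abundant in fibroblasts, at 0.32 ± 0.14 (SE; 0.151), whereas miR-214 and miR-199a-5p, processed from 1 transcript, were at -0.57 ± 0.20 and -0.48 ± 0.16 (SE; 0.0887 each). Over the 15 arrays miR-21 and miR-34a passed as higher and the other 3 as lower, beside the 12.7% and 23.6% given above. The median of these 5 was -0.48, beside -0.055 over all tested. In DM against Veh and in GF against DM 0 members of either list passed. The list medians there were 0.064 and -0.059 in DM minus Veh, beside 0.027 over all tested, and 0.028 and -0.38 in GF minus DM, beside -0.084.

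The defining miRNAs of cardiac muscle were tested on these arrays, and markers of other cell types were read beside the family. The 5 cardiac muscle miRNAs (miR-1, miR-133a, miR-133b, miR-208 and miR-499) had summed scaled signals of 114861 to 132783 in GF, 126683 to 135860 in DM and 124291 to 170763 in Veh samples. miR-1 and miR-133b carry most of this sum. In GF minus Veh the 5 were at -0.14, -0.34, -0.32, -1.34 and -0.19 in the order listed. Only miR-208 passed, as lower (limma adjusted p = 0.0194), beside 4.85% of all tested as lower. Over the 15 arrays 4 of the 5 passed as lower, beside 23.6% of all tested. The endothelial sum (miR-126 and miR-221, with miR-222 at the floor) was 15207 to 16492 in GF, 17054 to 20308 in DM and 18764 to 23217 in Veh samples. miR-126 was at -0.37 ± 0.10 and miR-221 at -0.38 ± 0.17 in GF minus Veh (SE; limma adjusted p 0.0542 and 0.160). Over the 15 arrays miR-126 passed as lower (limma adjusted p = 0.00128) and miR-221 did not, beside 23.6% of all tested. The fibroblast-rich sum (4 miRNAs) was 14313 to 18131 in GF, 15363 to 18641 in DM and 14020 to 17443 in Veh samples. miR-21 carries most of this sum, and in GF minus Veh it was at 0.32, whereas miR-199a-3p, miR-199a-5p and miR-214 were at -0.39, -0.48 and -0.57, with 0 of the 4 past the threshold. The leukocyte sum, from 4 miRNAs of 5, was 3731 to 4399 in GF, 3846 to 4846 in DM and 4395 to 4646 in Veh samples. Its members differed in sign, and miR-142-5p fell in GF against Veh (-0.64 ± 0.16, SE; limma adjusted p = 0.0367), while miR-142-3p was at -0.48, miR-150 at -0.0097 and miR-223 at 0.51. For smooth muscle (2 miRNAs) the sum was 14209 to 18178 in GF, 14748 to 16460 in DM and 11694 to 18927 in Veh samples, and for red cells (2 miRNAs) it was 4603 to 5936, 3447 to 6177 and 6148 to 7349 in that order of groups. The red cell miRNAs miR-144 and miR-451 were at -0.34 and -0.36 in GF minus Veh. They were at -0.54 and -0.61 in DM minus Veh, and neither passed over distinct samples. Over the 15 arrays both passed as lower in both comparisons, beside 23.6% and 1.82% of all tested. Of the markers of liver, neurons and pancreas, miR-122, miR-124 and miR-375 were at the floor in each group, and the sum including miR-9 was 79.1 to 85.6 in GF, 81.8 to 98.0 in DM and 90.3 to 95.1 in Veh samples. Most of this sum is the floor, and it moves with miR-9 alone. In GF minus Veh miR-9 was at -0.54 ± 0.17 (SE; limma adjusted p = 0.0822). It passed as lower over the 15 arrays (limma adjusted p = 0.0176), beside 23.6% of all tested. These marker values are of the scaled signal, and their signs without scaling are not given. The part of these cell types in the miR-29 values was not tested.

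The study's own calls rest on the unscaled total signal of each miRNA over 15 arrays, set relative to the Veh mean. In the authors' deposited table of 35 miRNAs that differed among the 3 groups, 23.5% of 149 by a test without correction for multiple testing, miR-29b had a p of 0.00125, miR-29a of 0.00295 and miR-29c of 0.0153. The authors' deposited table for GF and Veh lists all 3 members, as it does 20.1% of 149, with log2 differences GF over Veh of 0.67 for miR-29a, 0.68 for miR-29b and 0.53 for miR-29c. All 3 are also in the authors' deposited table for GF and DM (13.4% of 149), where the log2 differences, given as DM over GF, were -0.57, -0.50 and -0.46 in that order. None of the 3 is in the authors' deposited table for DM and Veh (3.36% of 149). Of the partner strands, miR-29a* is in the authors' deposited table for GF and Veh at 0.65. The same deposited values averaged to 10 distinct samples gave 0.62 ± 0.19, 0.65 ± 0.19 and 0.48 ± 0.19 (SE) for miR-29a, miR-29b and miR-29c in GF minus Veh (limma adjusted p 0.0634, 0.0618 and 0.128).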

How the data were processed

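Per the file headers, the authors deposited array files with processed intensity values from Agilent Feature Extraction 9.5.3.1, and tables of filtered log2 values with p-values from a one-way Welch analysis of variance and Tukey's post-hoc test, without correction. The log2 values were recomputed from the arrays' total gene signals, unscaled and relative to the Veh mean, to within 2.05e-06. Labelling used 100 ng of RNA, per the labels' protocols. Flagged spots (153 to 294 per array) were dropped, and 166 to 190 miRNAs per array were detected. Here the mean processed intensity of each probe was scaled to the array's 75th percentile over 254 probes well above background on all arrays, floored at 4.31 (log2), and each miRNA was read from its brightest probe. miRNAs well above background on at least 3 arrays of 1 group were tested (165) with limma 3.58.1 in R 4.3.3 over the 3 groups, with Benjamini-Hochberg adjustment within each comparison. Correlations used 100000 permutations. No source says that samples of a group came from separate animals, so p-values measure the spread between these samples, which may be technical. The number of arrays limits the precision. The members and lists were chosen with earlier results of these data known. Named miRNAs are the members, their partner strands and the 5 with the most similar pattern. Of each fibrosis list, those past the threshold or, otherwise, up to 4 with the largest differences are named. Cell type markers are named as list members. Single values of the cardiac muscle, endothelial, fibroblast, leukocyte, red cell and neural markers were chosen after they were seen. For normexp the deposited files hold a median foreground intensity, which was used. Replicate numbers did not pair the samples (correlations of deviations from -0.53 to 0.47 over 13 same-numbered pairs).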

Additional observations from a re-analysis of the deposited data

How the results depend on the processing

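For GF minus Veh the difference was above 0 for each member under all 17 alternatives and when each of the 10 distinct samples was left out. It passed the threshold for miR-29a, miR-29b and miR-29c with 15 arrays as independent (0.34, 0.34 and 0.21), with the 75th percentile over all probes (0.45, 0.48 and 0.32) and with a replicate block over 15 arrays (0.37, 0.37 and 0.24; adjusted p 0.0118, 0.0151 and 0.0398; 10.9% of all tested passed as higher), although the replicate numbers do not pair the samples. miR-29a and miR-29b also passed without scaling (0.63 and 0.66) and with the slide as a block over 15 arrays (0.34 and 0.34; 12.1% of all tested as higher). No member passed with quantile normalization, the hur control spots, normexp, the mean of all probes or total gene signal. There miR-29a was at 0.29 to 0.34, and 1.21% to 4.85% of all tested passed as higher. In 2 alternatives chosen after seeing the data all 3 passed over 15 arrays, without scaling (0.68, 0.69 and 0.55; 17.6% of all tested as higher) and on the authors' deposited values (0.67, 0.68 and 0.53; 22.8%). Over these 15 arrays GF minus DM passed for miR-29a without scaling (0.57; 4.24%). Counting each array as a sample counts both arrays of each close pair, and the cause of these changes was not tested. With 8 samples after further merging 0 of all 165 tested miRNAs passed in any comparison (limma), the members among them, and 35, 7 and 7 did at an unadjusted p under 0.05 in GF minus Veh, DM minus Veh and GF minus DM. The direction turned for miR-29c in DM minus Veh (-0.013 without scaling, -0.020 from the authors' deposited values) and in GF minus DM scaled to the hur control spots for miR-29b (-0.023) and miR-29c (-0.047).

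Leaving out each distinct sample in turn, the GF minus Veh difference ranged from 0.21 to 0.42 for miR-29a, from 0.21 to 0.45 for miR-29b and from 0.11 to 0.27 for miR-29c. In DM minus Veh the ranges were 0.051 to 0.26, 0.11 to 0.35 and 0.033 to 0.19, and in GF minus DM they were 0.076 to 0.21, 0.0035 to 0.16 and 0.014 to 0.12. Only miR-29a in GF minus Veh without Veh 5 passed among these. The correlations between members kept their sign and their side of the threshold under the 5 alternatives run, with r of 0.790 to 0.990. With quantile normalization the r with miR-29b were the lowest, 0.818 and 0.790.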
